A study of Mus musculus with 21 samples.

Results

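RPA-bound sites of mouse embryonic fibroblasts were compared between 2 ways of slowing replication forks while the ATR kinase was inhibited: knockdown of Timeless and a low dose of aphidicolin. All 188 peaks of the ATRi+shTIM list and all 327 peaks of the ATRi+APH 18 h list were taken, 515 of the 683 peaks in the 6 lists of the series. Peaks of the 2 lists were paired when they overlapped by at least 1 bp, and peaks joined through such overlaps were treated as 1 site. A peak with a partner is called shared below, and one without is called single-list.

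The cells were ATR+/- fibroblasts immortalized by passaging, so every group carried the heterozygous Atr genotype, and the controls did too. One group was an shRNA knockdown of Timeless (labelled TIM KD) given 1 µM of an ATR inhibitor that the labels call ATR-45, for 18 h. It had 2 ChIP libraries, made with 1 antibody lot that was also 1 of the 3 lots of the other group, and 1 input library. The other received 1 µM of that inhibitor together with 0.2 µM aphidicolin for 18 h, with 3 ChIP libraries, 1 per lot, and 2 input libraries. The stress, the number of libraries and the mix of lots cannot be told apart. The extent of the knockdown, the hairpin sequence and the number of knockdown clones are not given in the labels, and a group with Timeless knockdown and no inhibitor was not analysed here. Each list was made from all libraries of its group, so neither holds a value per library. No spread between cultures could be computed and no test between the stresses was possible. The groups share no ChIP or input library. Intervals below are exact 95% intervals over peaks or sites. They cover counting error only and treat neighbouring peaks as independent.

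RPA is the heterotrimer that coats single-stranded DNA, and its RPA32 subunit was the target of the antibody. When a fork stalls and the ATR checkpoint cannot act, the fork can collapse and leave long single-stranded tracts, on which RPA collects. Timeless, together with Tipin and Claspin, holds the helicase and the polymerases of a fork together, whereas aphidicolin blocks the replicative polymerases directly. Both uncouple unwinding from synthesis, by different routes.

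Most sites listed with Timeless knockdown were also listed with aphidicolin, and about as many aphidicolin sites were shared as were not. Of the ATRi+shTIM peaks, 157 of 188 were shared (83.5%, 95% interval 77.4 to 88.5%). Of the ATRi+APH peaks, 166 of 327 were shared (50.8%, 45.2 to 56.3%). They formed 169 overlapping pairs in 154 sites. Of these sites, 145 held 1 peak of each list, 6 held 1 ATRi+shTIM peak with several ATRi+APH peaks, and 3 held the reverse. Together the lists covered 72.8 kb in common, which was 77.5% of the length listed with Timeless knockdown and 33.4% of that listed with aphidicolin. The authors' lists ended at different strengths, with a lowest −log10 p of 10.7 for ATRi+shTIM and 21.7 for ATRi+APH. Held to the common value of 21.7, 91 ATRi+shTIM peaks were left, 97.8% of them were shared, and the shared part of the ATRi+APH list fell to 30.9%. Absence from a list is therefore absence above its threshold, and library depth was unknown.

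The sequences of 4 stretches that were listed with aphidicolin and not with Timeless knockdown are shown first, a tandem repeat, a tRNA gene and the reach of 2 broad peaks into promoters. They are the parts of peaks that lie before an annotated RefSeq transcription start (GRCm38.p6, the coordinates of mm10). The table has no window on 1 chromosome, named with the gene settings below, which held 3 ATRi+shTIM and 16 ATRi+APH peaks. None of the other 185 ATRi+shTIM peaks overlapped any of the 32851 start windows of 300 bp, while 8 of the other 311 ATRi+APH peaks overlapped 9 of them. The first stretch, from a single-list peak of 7.67-fold that ran from 118547250 to 118547472 on chromosome 4 at the start of a predicted gene, is a tandem repeat with a 44 bp unit. Capitals and lower case mark alternate units. The second, from a single-list peak of 14.8-fold at the start of Polg, which encodes the mitochondrial DNA polymerase, holds the 73 bases of the arginine tRNA gene n-TRtcg5, in capitals. It is printed on the strand of Polg, so the capitals are the reverse complement of the tRNA. The third is the part of a single-list ATRi+APH peak near Ptgr2, a prostaglandin reductase, that reaches the window of that gene. The fourth, before the start of Gp9, a platelet glycoprotein, lies in a shared site, but only the ATRi+APH peak covers it. Each is written 5′ to 3′ on the strand of its gene.
Predicted gene, chr4:118547250-118547405, plus strand: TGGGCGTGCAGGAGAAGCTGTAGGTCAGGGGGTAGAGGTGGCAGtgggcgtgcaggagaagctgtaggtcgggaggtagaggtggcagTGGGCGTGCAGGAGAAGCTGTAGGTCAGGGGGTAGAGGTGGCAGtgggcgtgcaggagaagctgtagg
Polg, chr7:79466281-79466523, minus strand: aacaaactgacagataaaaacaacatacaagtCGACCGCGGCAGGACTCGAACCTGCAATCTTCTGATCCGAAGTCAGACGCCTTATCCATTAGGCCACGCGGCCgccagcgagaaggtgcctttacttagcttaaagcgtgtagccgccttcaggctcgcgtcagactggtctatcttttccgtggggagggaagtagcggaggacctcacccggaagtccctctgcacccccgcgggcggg
Ptgr2, chr12:84285046-84285121, plus strand: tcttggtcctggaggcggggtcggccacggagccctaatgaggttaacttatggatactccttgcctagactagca
Gp9, chr6:87777820-87778069, plus strand: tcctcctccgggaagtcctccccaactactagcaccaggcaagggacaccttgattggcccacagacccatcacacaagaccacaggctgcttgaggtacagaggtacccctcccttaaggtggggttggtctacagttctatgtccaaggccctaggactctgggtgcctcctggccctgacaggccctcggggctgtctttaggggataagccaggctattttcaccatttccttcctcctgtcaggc
In the chromosome 4 window, 96.1% of bases matched the base 44 positions on. A match of at least 80% at any period from 10 to 60 bases was found in 15 of the 32851 windows (0.0457%). At the other 3 genes printed the best such match was between 30.2 and 33.2%, so no repeat of that length was found there. GC content was 62.7% in the chromosome 4 window, 59.3% at Polg, 57.7% at Ptgr2 and 58.3% at Gp9, against a median of 52.7% over all windows. Over the 9 windows met by a peak it ranged from 35.7%, in a predicted gene within the single-list peak in Stam2, to 75% at Urgcp. A genome sequence for the remaining peaks was not used here.

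At most shared sites the summits of both lists were within 50 bp of each other. The summits, the positions of highest signal, lay a median of 16 bp apart (interval 12 to 20 bp) over the 169 pairs, with a range of 0 to 1986 bp. They were within 50 bp in 131 pairs and within 10 bp in 66. Each summit lay inside the partner peak in 152 pairs. In 14 pairs the summits were over 500 bp apart. Because paired peaks must overlap, their widths limit how far apart the summits can lie, most tightly where both peaks are narrow. The largest distance, 1986 bp, was in a pair near Tcte2. Taking only the strongest peak of each list at a site, the farthest summits, 1302 bp apart, were near the zinc finger gene Zfp825 (chromosome 13, 74528392 to 74531053 with Timeless knockdown), where 1 ATRi+shTIM peak met 6 ATRi+APH peaks. By the same measure they were 726 bp apart near Fam43a, and near Aadac, an arylacetamide deacetylase gene, 612 bp.

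The width of shared sites differed between the lists in opposite directions at narrow and at broad sites. The width of a site in a list is the summed width of its peaks there, without the gaps between them. The geometric mean of both widths gave 66 narrow sites of at most 250 bp, 31 broad sites over 1 kb and 57 between. These bounds were chosen after the values were seen. At narrow sites the median width was 202 bp with Timeless knockdown and 133.5 bp with aphidicolin, and 60 of 66 were wider with Timeless knockdown. The median ratio, aphidicolin over Timeless knockdown, was 0.657 (0.581 to 0.733). The surplus was symmetrical: the ATRi+shTIM peak reached 41 bp beyond the ATRi+APH peak at the edge nearer the ATRi+APH summit and 40.5 bp at the other (medians). The smallest width in the whole list was 138 bp for ATRi+shTIM and 84 bp for ATRi+APH. How far these unequal lower limits set the difference at narrow sites was not tested. At broad sites the median width was 1224 bp with Timeless knockdown and 2378 bp with aphidicolin, and 24 of 31 were wider with aphidicolin, with a median ratio of 2.27 (1.33 to 2.95). Here the median surplus lay at the far edge, but single pairs differed. In 7 of 31 broad pairs the ATRi+shTIM peak lay within the ATRi+APH peak, in 8 the reverse held, and 16 were staggered. Over the 31 broad pairs the ATRi+shTIM peak reached 36 bp beyond the ATRi+APH peak at the near edge, and at the far edge the median difference was −1183 bp (−2060 to −236 bp), the ATRi+shTIM peak ending first. Over the 57 sites between, the ratio was 1.03 (0.914 to 1.28).

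**Figure D1:**
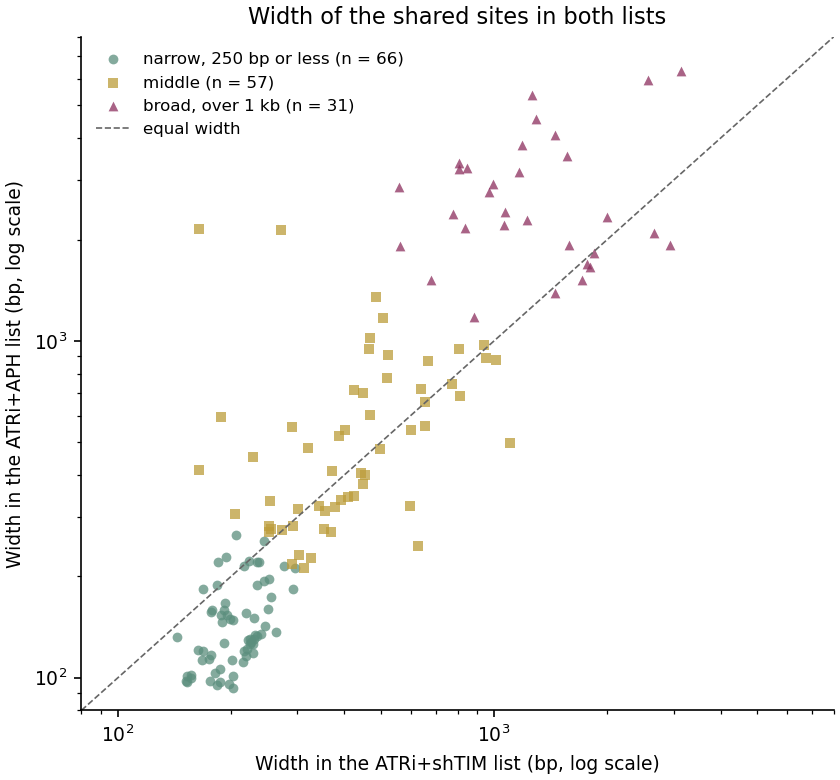
Width of each of the 154 shared sites in the ATRi+shTIM list (horizontal axis) and in the ATRi+APH list (vertical axis), both in bp on log scales, with the dashed line marking equal width. Of the 66 narrow sites (circles), 60 lie below the line, and of the 31 broad sites (triangles), 24 lie above it.

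Dividing by 1 list's width alone kept the direction at broad sites and changed its size: the median ratio was 1.55 with 13 of 22 sites wider with aphidicolin when the ATRi+shTIM width was used, and 2.31 with 29 of 36 when the ATRi+APH width was used. The largest ratios belonged to a site inside Cldn34-ps (chromosome X), where a 164 bp ATRi+shTIM peak met a 2148 bp ATRi+APH peak (ratio 13.1), and to a site near Prkci, an atypical protein kinase C gene (chromosome 3), with 272 and 2139 bp (7.86). Near Gdf3, which encodes a TGF-beta family ligand, the ratio was 5.13, near the ubiquitin ligase gene Rnf145 it was 4.27, and near Gp9 4.20. In the other direction, the ratio was lowest, 0.391, near the histamine receptor gene Hrh4, and a site inside Actr3b, an actin-related protein gene (chromosome 5), was 1105 bp wide with Timeless knockdown and 497 bp with aphidicolin (0.45). Ratios of 0.460 near the centrin-binding protein gene Sfi1, 0.487 inside Nkain3 and 0.5 near Pgpep1, a peptidase gene, followed, and the last 3 were narrow sites.

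Among the 7 broad sites that were wider with Timeless knockdown, named here after their values were seen, 4 lay near Asmt at the end of chromosome X, 1 near Zfp825, 1 near Tcte2 and 1 near a predicted gene on chromosome 9. At some of them, as near Zfp825 and Tcte2, 1 ATRi+shTIM peak met several ATRi+APH peaks, whose gaps were not counted as width. The ranges of widths at broad sites overlapped between the lists, from 560 to 3140 bp with Timeless knockdown and from 1177 to 6317 bp with aphidicolin. Widths ran together over all 154 sites (Spearman's rank correlation 0.863) and not within the 31 broad ones (0.0185). These correlations are descriptions over sites that share a build and a peak caller.

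Neighbouring ATRi+APH peaks of at least 500 bp mostly had summits that faced each other across a short unlisted gap. Of 24 pairs of neighbouring ATRi+APH peaks at most 2 kb apart and each at least 500 bp wide, 19 had both summits nearer the inner edge, toward the gap, 4 pointed the same way and 1 pointed away. Among the other 65 neighbouring pairs of that list, with narrower peaks, 22 faced the gap. The ATRi+shTIM list held 7 such wide pairs, of which 4 faced the gap. With clusters of at least 5 peaks within 50 kb left out, the facing shares were closer, 80% for ATRi+shTIM and 86.4% for ATRi+APH. With aphidicolin the gap was a median of 400 bp (140 to 1870 bp), an arm was 1559 bp wide in the median, and its summit stood 89 bp (69 to 313 bp) from the gap. With Timeless knockdown the 4 gaps were 196 to 868 bp, the median arm was 908.5 bp wide, and the summit stood 133.5 bp from the gap. These criteria were also set after the values were seen.

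**Figure D2:**
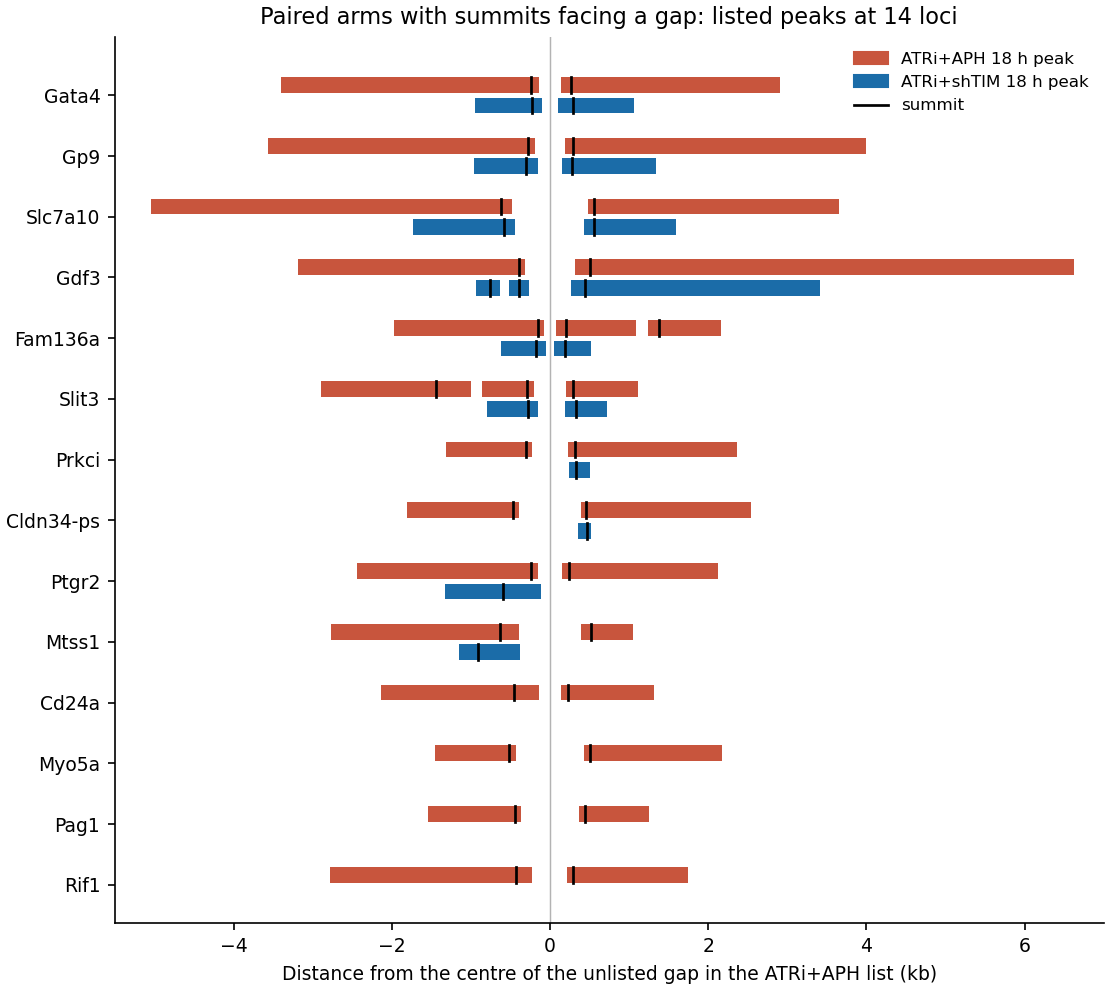
Listed peaks at 14 of the 19 facing pairs of the ATRi+APH list, drawn to scale as distance in kb from the centre of the gap, with ATRi+APH 18 h peaks (red) above ATRi+shTIM 18 h peaks (blue) and summits as black ticks. At the 6 upper loci both arms have ATRi+shTIM partners that start at nearly the same inner edge and end sooner. At the next 4 only 1 arm has a partner, and at the last 4 none has. The facing pairs not drawn, inside Sun5 and Gdpd5 and near Plekhg6, Adgrl1 and Zfp706, also have no arm with a partner.

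At 6 of the 19 facing pairs both arms were listed with Timeless knockdown: near Gata4, a heart and endoderm transcription factor, Gp9, Slc7a10, an amino acid transporter gene, Gdf3, Fam136a and Slit3, an axon guidance ligand. Over the 13 overlaps at these loci, the inner edges of the lists differed by a median of 41 bp (8 to 321 bp) and the summits by 18 bp. Over the same 13 overlaps, the ATRi+APH peak reached a median of 2245 bp farther out (59 to 3319 bp). The left arm near Gdf3 entered these medians more than once, with ATRi+shTIM peaks of 306 and 254 bp. Near Gata4, the left arm ran from 63279566 to 63280412 on chromosome 14 with Timeless knockdown (847 bp, 27.9-fold) and from 63277107 to 63280371 with aphidicolin (3265 bp, 49.97-fold). Its inner edges were 41 bp apart and its summits 8 bp. The right arm there was 970 bp wide at 20.4-fold and 2762 bp wide at 30.0-fold. The exception was the left arm near Slit3, which was 656 bp wide with Timeless knockdown and 660 bp with aphidicolin, although a further ATRi+APH peak of 1894 bp, single-list, lay 202 bp outside the ATRi+shTIM arm.

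The added length is where aphidicolin peaks met annotated starts at shared sites. Near Gp9 the right arm ended at 87776830 on chromosome 6 with Timeless knockdown and at 87779491 with aphidicolin, and the Gp9 start at 87778070, whose upstream sequence is printed above, lay between. At Urgcp, a gene linked to cell proliferation (chromosome 11), the ATRi+shTIM peak ran from 5741859 to 5743421 and the ATRi+APH peak from 5740330 to 5743870, with the start at 5741176 inside the latter only. The predicted gene near Slc7a10 that starts at 35156836 on chromosome 7 was likewise covered by the ATRi+APH arm (35155300 to 35159869) and not by the ATRi+shTIM arm (35158619 to 35159910).

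At 4 loci only 1 arm had a partner, near Prkci, Ptgr2 and Mtss1 and in Cldn34-ps. In the remaining 9, no arm was listed with Timeless knockdown. These lay inside Sun5, Pag1, Gdpd5 and Myo5a, and near Rif1, a regulator of replication timing, Plekhg6, Adgrl1, Cd24a and Zfp706. The 16 arms with a partner had a median of 30.7-fold (18.1 to 51.6) and the 22 without one 20.04-fold (8.15 to 33.5), so the 2 ranges overlapped. Arms near Cd24a, a cell surface glycoprotein gene, reached 33.5 and 30.5-fold without being listed with Timeless knockdown. A denser arrangement stood near Klf15, a Krüppel-like transcription factor gene, where 5 ATRi+APH peaks between 90513950 and 90522651 on chromosome 6 included narrow peaks between a left arm of 3229 bp and a right arm of 3936 bp. All 5 were shared, with 4 ATRi+shTIM peaks. The folds there were 28.5 to 42.4 with aphidicolin and 8.14 to 33.99 with Timeless knockdown.

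Within a peak, the summit stood within 10% of the width from an edge in 34 of 66 ATRi+APH peaks over 1 kb and in 4 of 22 ATRi+shTIM peaks over 1 kb. Its median distance to the nearer edge was 8.92% of the width in the former and 27.2% in the latter. Narrow peaks of both lists were close to symmetrical, at 44.3% with aphidicolin and 44.7% with Timeless knockdown, where 50% would be the centre.

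Rank by fold enrichment within each list, given as a percentile with 100 the highest, ran together at shared sites only in part. Spearman's rank correlation of the folds was 0.505 over 154 sites, 0.674 over the broad, 0.307 over the middle and 0.486 over the narrow ones. As many sites ranked higher with aphidicolin as with Timeless knockdown, 77 each. Broad sites ranked higher with aphidicolin in 22 of 31 cases, with a median difference of 7.63 percentile points (2.06 to 16.9). For narrow sites the median difference was −1.96 points (−11.2 to 3.23), 37 of 66 ranking higher with Timeless knockdown. That sign did not hold at the common threshold, where the median was 5.85 points.

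**Figure D3:**
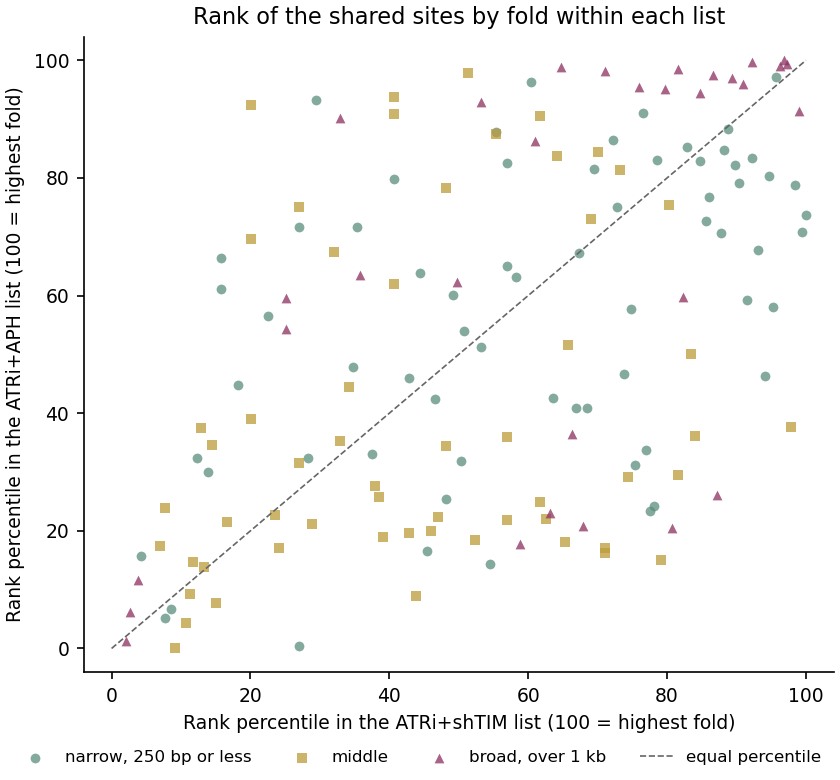
Rank percentile by fold of each of the 154 shared sites within the ATRi+shTIM list (horizontal) and the ATRi+APH list (vertical), with 100 the highest fold and the dashed line marking equal percentile. Broad sites (triangles) lie above the line in 22 of 31 cases and fill the upper right corner with a share of the narrow ones (circles).

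The 12 sites with the lowest sum of ranks were near Gdf3, Slc7a10, Klf15 and Gata4 with 2 each, and near Spon1, Gp9, Rnf145 and Rgma with 1 each. All but the site near Spon1, a secreted matrix protein gene, were broad. Near Gdf3 the larger arm had 35.6-fold enrichment with Timeless knockdown (rank 7) and 51.6-fold with aphidicolin (rank 1). The Spon1 site was 198 and 149 bp wide and had 33.5-fold (rank 9) and 35.2-fold (rank 10). Near Rgma, a repulsive guidance molecule gene, the site was 2570 bp wide at 22.7-fold and 5961 bp at 37.6-fold. Of the 154 sites, 26 were in the top 25% of both lists, 13 of them narrow, 12 broad and 1 between.

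Among the 4 highest folds with Timeless knockdown, the broad site near Gp9 (43.9-fold, rank 3) had rank 29 with aphidicolin, and the others, named here after their values were seen, were narrow sites that ranked lower still. A 229 bp peak in a predicted gene on chromosome 4 (63602171 to 63602399) had 48.9-fold enrichment, rank 1, and its partner 13.0-fold, rank 87. Inside Cd163l1, a scavenger receptor gene, the values were 47.1-fold (rank 2) and 12.7-fold (rank 96), and inside Nkap, which encodes an NF-kappaB activating protein, 41.0-fold (rank 4) and 15.0-fold (rank 70). In all 3 the summits were 2 bp apart. By the largest difference in percentile, sites higher with Timeless knockdown lay near Arhgap25, a GTPase-activating protein gene (16.8-fold against 5.15-fold), near Asmt (23.7 against 6.97), inside Clec2e, a C-type lectin gene (40.1 against 8.22), and near Eci2 (13.8 against 5.34). Those higher with aphidicolin lay inside Prkdc, the catalytic subunit of DNA-dependent protein kinase (7.29-fold with Timeless knockdown, 27.2-fold with aphidicolin), near Klf15 (8.14 and 28.5), near Mtss1, a membrane-bending scaffold gene (8.44 and 22.6), near Slit3 (9.16 and 29.2) and near Asmt (7.15 and 11.7). Folds from the 2 lists come from different libraries, so these values describe ranks and not a change at the site.

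The 31 peaks listed with Timeless knockdown only were weak members of their list. Their median rank percentile was 21.9 (9.63 to 33.7) against 57.0 (49.2 to 64.7) for its shared peaks, 17 of 31 were in the bottom 25% of the list and 1 in the top 25%. None was over 1 kb wide, against 22 of 157 shared peaks, while the median widths were 335 bp (226 to 420) and 276 bp (245 to 353), with overlapping intervals. By −log10 p, 29 of the 31 fell below the lowest value of the ATRi+APH list, as did 68 of the 157 shared ones. At the common threshold only 2 single-list peaks were left and their median percentile was 47.8. The strongest lay near the olfactory receptor gene Olfr323 (chromosome 11, 58628562 to 58628891), with 29.4-fold, rank 13 and a −log10 p of 78.8. It overlapped the list of both drugs at 9 h, the only one of the 31 to meet any of the 4 remaining lists. The other lay inside Tmem267 (chromosome 13, 8.45-fold, −log10 p 22.5), 345 bp from an ATRi+APH peak. Next by fold came peaks near Gpat3, a glycerol phosphate acyltransferase gene (11.2-fold), 3 near Asmt (9.35 to 10.6), inside Abcc8, the sulfonylurea receptor gene (9.18), near Zranb2 (9.16) and inside Pde1a, a phosphodiesterase gene (8.69).

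**Figure D4:**
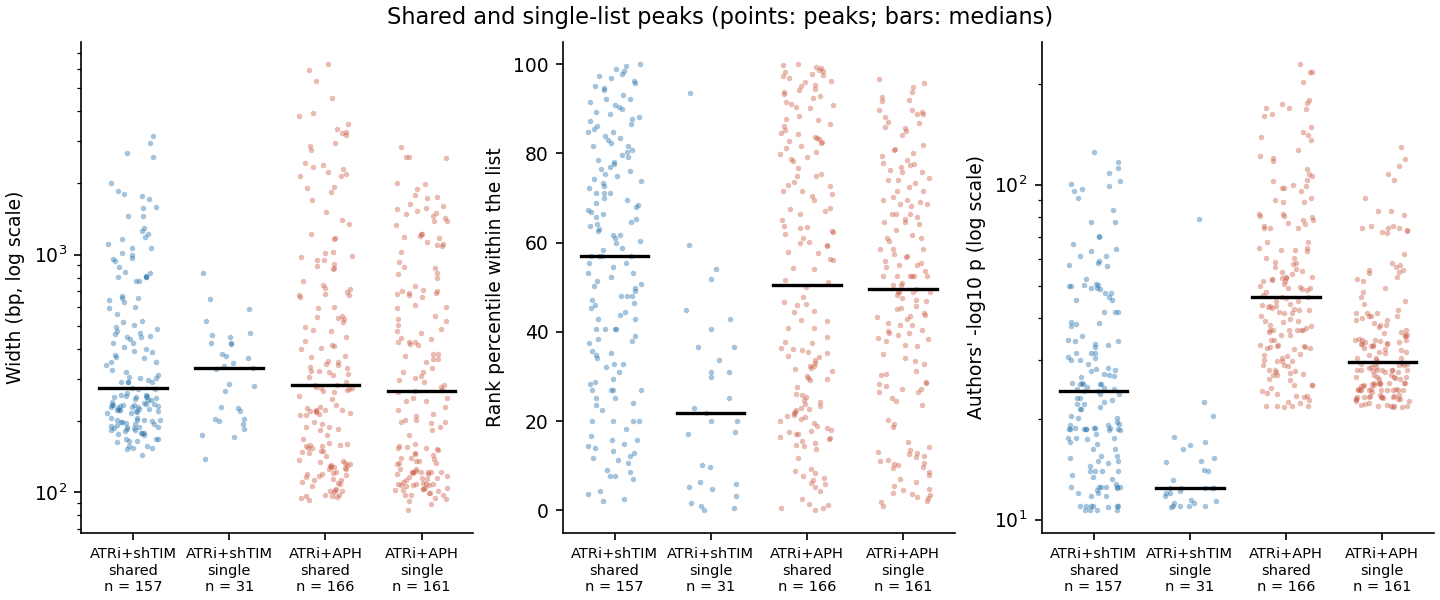
Width in bp (left, log scale), rank percentile within the list (middle) and the authors' −log10 p (right, log scale) of every peak, split into shared and single-list peaks of ATRi+shTIM (blue) and ATRi+APH (red), with bars at the medians. ATRi+shTIM single-list peaks sit low in rank (median 21.9) and in −log10 p (12.5), whereas ATRi+APH single-list peaks reach the rank of the shared ones (medians 49.7 and 50.6).

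The 161 peaks listed with aphidicolin only had medians of width and rank close to those of its shared ones. Fewer of them stood at either end of the ranking. Their median rank percentile was 49.7 (43.9 to 55.1) against 50.6 (37.4 to 62.0). In the top 25% of the list were 32 of 161 (19.9%, 14.01 to 26.9%) and 49 of 166 (29.5%, 22.7 to 37.1%). In the bottom 25% were 35 of 161 (21.7%, 15.6 to 28.9%) and 47 of 166 (28.3%, 21.6 to 35.8%). The intervals overlapped at both ends. Median widths were 267 bp (197 to 363) and 282.5 bp (222 to 358), and 32 of 161 single-list peaks were over 1 kb wide against 34 of 166 shared ones. With peaks under 1 kb apart merged, the medians lay farther apart, at percentiles of 48.4 and 57.9 and widths of 214 and 338 bp. Their −log10 p was lower, with a median of 29.6 (28.0 to 33.0) against 46.1 (41.8 to 52.1). Even so, 9 of them exceeded the 78.8 of the strongest peak listed with Timeless knockdown only. The strongest were an arm near Cd24a (33.5-fold), a peak in Cldn34-ps (31.5) and the other arm near Cd24a (30.5), followed by peaks near Ptgr2 (29.2), Prkci (27.5) and Cyp8b1, a bile acid hydroxylase gene (25.8), inside Stam2, an endosomal sorting gene (24.1), and inside Myo5a, a myosin motor gene (22.5). All 8 were over 1 kb wide. Of the 32 broad single-list peaks, 17 were arms of facing pairs, as were 14 of the 34 broad shared ones.

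Part of the aphidicolin-only group extended sites that Timeless knockdown also marked. A peak of the ATRi+shTIM list lay within 5 kb of 33 of the 161, and within 1 kb of 23, among them the arms near Ptgr2 (253 bp away), Prkci (466 bp), Cldn34-ps (746 bp) and Mtss1 (766 bp) and the strong peak in Stam2 (482 bp). The larger part stood alone, 112 being over 1 Mb from any ATRi+shTIM peak or on a chromosome without one. Peaks listed with Timeless knockdown only were less isolated, with 8 of 31 within 1 kb of an ATRi+APH peak and 14 over 1 Mb away. The ATRi+shTIM list is the shorter of the 2, and the distances were not adjusted for that.

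Of the ATRi+shTIM and ATRi+APH peaks that met the list of the inhibitor alone or that of both drugs at 9 h, most were shared. The list of the inhibitor alone met 45 of 157 shared ATRi+shTIM peaks and none of the 31 single-list ones (0%, up to 11.2%), and 46 of 166 shared against 8 of 161 single-list ATRi+APH peaks. With both drugs for 9 h the counts were 58 and 1, and 62 and 3. Of the 154 sites, 31 were in all 4 lists with the inhibitor, 12 of the 31 broad ones, 15 of the 66 narrow ones and 4 of the 57 between. The DMSO list met 3 shared peaks of each list, none of the single-list ATRi+shTIM peaks and 6 of the single-list ATRi+APH peaks. Those 2 comparison lists of ATR-inhibited cells are short, with 56 and 65 peaks, and end at higher −log10 p values of 29.9 and 33.97. Strong peaks are therefore more likely to meet them, and how far that sets these counts was not tested.

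By gene setting the classes overlapped. Summits lay inside a protein-coding gene body in 41 of 157 shared ATRi+shTIM peaks (26.1%, 19.4 to 33.7%) and 13 of 31 single-list ones (41.9%, 24.5 to 60.9%). For ATRi+APH the counts were 41 of 166 (24.7%, 18.3 to 32.0%) and 55 of 161 (34.2%, 26.9 to 42.0%). With clusters of neighbouring peaks left out, the shares were 33.6 and 38.2% for ATRi+shTIM and 34.2 and 39.3% for ATRi+APH, and the shared and single-list shares were closer. Summits over 50 kb from any coding gene made up 42 of 157, 7 of 31, 46 of 166 and 47 of 161 in the same order. Within 2 kb of an annotated start were 5 of 155, 2 of 30, 6 of 164 and 12 of 147, since peaks of chromosome 18 had no start in the table. Broad sites lay inside coding genes in 4 of 31 cases (12.9%, 3.63 to 29.8%), against 19 of 66 narrow ones (28.8%, 18.3 to 41.3%). The intervals overlapped, and the share over all 154 sites was 26.6%. Among all ATRi+APH peaks, 20 of 66 over 1 kb (30.3%) and 44 of 153 of at most 250 bp (28.8%) did. For ATRi+shTIM these were 5 of 22 (22.7%) and 25 of 79 (31.6%).

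**Figure D5:**
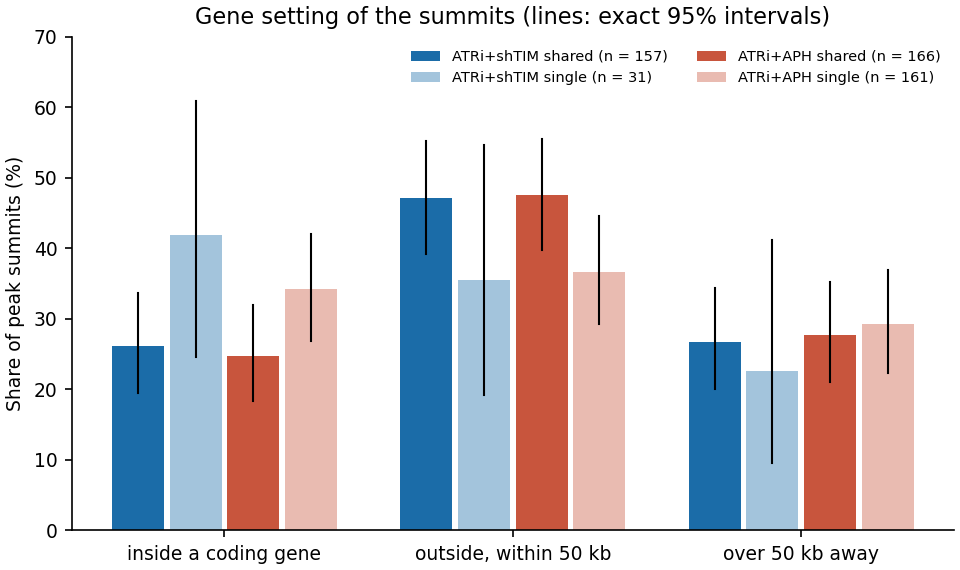
Share of summits in % inside a protein-coding gene body, outside but within 50 kb of one, and over 50 kb away, for shared and single-list peaks of both lists, with exact 95% intervals as lines. Inside coding genes the single-list bars (41.9 and 34.2%) stand above the shared ones (26.1 and 24.7%) with overlapping intervals.

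The gene groups fixed for this comparison were small beside the density of the peaks. A summit lay within 10 kb of 0.366% of 21883 protein-coding genes for ATRi+shTIM and of 0.567% for ATRi+APH. No summit of either list lay that near to 20 genes of common fragile sites such as Fhit and Wwox, 21 genes of fork protection and the ATR pathway, Timeless and Atr among them, and 12 genes of the replicative polymerases, and at these background shares the zeros say nothing particular about them. The 403 tRNA genes in the table lay within 10 kb of 7 ATRi+APH peaks and of none with Timeless knockdown. Because tRNA genes stand in clusters, these 7 peaks were near 24 of the 403 (5.96%), against 0.491% of all 49939 genes for that list and 0.276% for ATRi+shTIM. The ATRi+APH list is the longer one, and no test of the difference was made. All 7 were single-list, with folds of 7.002 to 14.8, the Polg peak being the strongest. In each of the 7 the summit lay inside a tRNA gene: n-THgtg4 and n-THgtg5 on chromosome 2, n-TRtcg5 and n-TLtag1 on chromosome 7, and n-TLaag7, n-TVaac2 and n-TGgcc6 on chromosome 13. Their −log10 p was 23.4 to 54.9, 3 of them overlapped the list of the inhibitor alone, and the nearest ATRi+shTIM peak was over 1 Mb away from each. Vmn1r66, a vomeronasal receptor gene, was near a shared site (26.9-fold with Timeless knockdown, 17.0-fold with aphidicolin), and Vmn2r1 held a single-list ATRi+APH summit of 8.91-fold. None of 1005 miRNA hairpins met a peak of either list.

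Clusters of at least 5 peaks of 1 list within 50 kb held part of both classes. They held 28 of 157 shared ATRi+shTIM peaks (17.8%) and 4 of 31 single-list ones (12.9%), against 17.0% of the whole list. For ATRi+APH they held 46 of 166 shared peaks (27.7%) and 21 of 161 single-list ones (13.0%), against 20.5% of the whole list. Near Asmt, which encodes the last enzyme of melatonin synthesis, chromosome X held 18 ATRi+shTIM and 20 ATRi+APH peaks between 170808883 and 170859471, of which 15 and 16 were shared. Their median fold was 10.0 and 9.32. On chromosome 10, from 3109870 to 3117163, 8 and 9 peaks were all shared. Near Zmat1 on chromosome X (135040271 to 135054732) there were 6 and 9 peaks, with 5 shared in each list. A cluster between 3001233 and 3038242 on chromosome 9 held 8 weak ATRi+APH peaks of 2.56 to 3.33-fold and no ATRi+shTIM peak. Near Zfp825, Tcte2 and Hrh4, 1 ATRi+shTIM peak stood against 6, 5 and 5 ATRi+APH peaks, of which 6, 4 and 1 were shared with it. Chromosomes differed in the same way, from chromosome 11, where 1 of 13 ATRi+APH peaks was single-list, to chromosome 18, where 14 of 16 were.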

How the data were processed

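RPA ChIP-seq was compared between 2 of the 6 treatments of the series. Per the labels' protocols, RPA32-bound chromatin was immunoprecipitated and sonicated again before library preparation. Tools named in the submitters' processing notes, without role or setting, are MACS2 2.1.0, Picard 1.141, SAMtools 0.1.19, STAR 2.5.2a and bcl2fastq 2.17.1.14, with the mm10 build. The number of reads behind each list is not given in the sources used here, so depth is unknown.

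Per peak, the deposited lists hold the summit, a −log10 p-value, a −log10 q-value, a ratio of ChIP to input at the summit (fold enrichment) and a score. The authors pooled all ChIP and input libraries of a treatment, per the peak names inside the lists. The deposited score was not used. Fold was used to rank and describe peaks within a list, with ties sharing a mean rank, and folds of both lists at a site are set side by side without a test.

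Coordinates are 1-based. Genes came from 49939 RefSeq entries on GRCm38.p6, 21883 of them protein-coding, as gene bodies without exons. A peak is named by the coding gene that holds its summit (inside) or else by the nearest one (near). Predicted genes without a proper symbol were counted but given no name. Named were the 12 sites of lowest rank sum, the 8 strongest single-list peaks of each list, the 5 sites of most extreme percentile difference, summit distance and width ratio, clusters of at least 5 peaks within 50 kb, and members of the gene groups. The histone gene group matched no symbol in the table and was void. A site that the text leaves out is not reported here.

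Shares have exact Clopper-Pearson intervals and medians have order-statistic intervals, both at 95%. With 1 pooled list per treatment no test was made. Pairing and the median width ratio were tested on simulated lists, and the intervals were not. The members, groups and alternatives were chosen with earlier results of these data known. Python 3.11.15, pandas 2.3.3, NumPy 2.4.6, SciPy 1.17.1 and matplotlib 3.10.9 were used.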

Additional observations from a re-analysis of the deposited data

How the results depend on the processing

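Of 123 recomputed values of the main results, 109 kept within their interval and 14 moved. For the rank correlation, a fixed band around its value stood in for an interval. It was the only main result checked for a change of sign, and it kept its sign. Counting peaks up to 1 kb apart as paired raised the shared part of the ATRi+APH list to 57.8% and the median summit distance to 103 bp. At the common lowest −log10 p of 21.7 (91 and 327 peaks), the shared parts were 97.8% of ATRi+shTIM and 30.9% of ATRi+APH, the median percentile of single-list ATRi+shTIM peaks was 47.8, the rank correlation of sites was 0.611, and the percentile difference of narrow sites turned to 5.85 points. At a −log10 q of at least 20 (75 and 272 peaks) the shared parts were 96.0 and 29.4%, the median width ratio was 0.813, 0.579 at narrow sites, and the narrow percentile difference was 3.96 points, also turned. Merging peaks under 1 kb apart (149 and 248 peaks) gave 32.0% of shared ATRi+APH summits in coding genes, and left only 1 wide neighbouring pair of ATRi+shTIM and 3 of ATRi+APH, so that the facing shares of 0 and 100% there say nothing about facing. Leaving out clusters gave 34.2%. Counting any annotated gene gave 37.6% for shared ATRi+shTIM, 40.4% for shared ATRi+APH and 49.7% for single-list ATRi+APH summits. Requiring the overlap to cover 50% of the smaller peak and leaving out peaks that overlap the DMSO list moved none of the main results. Shape by 1 list's width was an alternative chosen after seeing the data. The cause of these shifts was not tested, except that the stricter thresholds leave fewer ATRi+shTIM peaks. No paired analysis was possible because each list pools all libraries of its group, and for the same reason no replicate could be left out. Unknown depth and unequal thresholds limit every statement that a site was absent from a list.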
